A study of Mus musculus with 12 samples.

Results

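The proton pump and the enzymes, membrane proteins and regulators of the lysosome were followed in mouse peritoneal macrophages with and without the nuclear IκB protein IκBζ. The list holds 40 genes, namely 17 of the vacuolar proton pump (V-ATPase), 11 cathepsins and legumain, 5 lysosomal membrane proteins, 4 glycosidases and lipases, and 3 transcription factors. A gene was represented by a probe set that carries its symbol and no other, and by the one with the highest mean over all arrays where there were several. By this rule 39 of the 40 genes were measured, among 19938 genes in all. Atp6v0c, which encodes the proteolipid of the pump's rotor ring, was not matched to such a probe set and was not analysed here.

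Cells came from the peritoneal cavity of female mice, and each of the 4 groups has 3 arrays. The groups are Nfkbiz-/- cells given lipopolysaccharide (LPS, a component of the bacterial cell wall which the receptor TLR4 detects) for 4 h at 1 µg/ml, untreated Nfkbiz-/- cells, C57Bl/6 wild-type cells given the same LPS treatment, and untreated C57Bl/6 wild-type cells. The labels name no allele beyond Nfkbiz-/-, no age, and no sort of the washed-out cells, and they do not say whether the arrays of a group stand for separate mice. The p-values therefore rest on the spread among these arrays alone, and part of that spread may be technical. In bulk RNA, fewer cells of a type and less RNA per cell cannot be told apart.

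The vacuolar proton pump is a rotary machine in which the V1 sector hydrolyses ATP in the cytosol and the membrane-bound V0 sector moves protons into the lysosome. The acid it makes lets cathepsins, glycosidases and lipases digest what macrophages take up. Many of these genes are known targets of TFEB, TFE3 and MITF, basic helix-loop-helix factors that bind the CLEAR motif and that mTORC1 holds in the cytosol of fed cells.

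The core of that motif, TCACGTGA, was searched for in promoters from RefSeq (build GRCm38.p6), taken from 250 bases before to 50 bases after each gene's start. The 8 letters read the same on both strands and contain the E-box CACGTG. A promoter was found for 32 of the 40 genes, and 7 of these (21.9%) held TCACGTGA, against 304 of the 27025 genes with a promoter in the table (1.12%). CACGTG was found in 13 of the 32 (40.6%), against 8.09% of all genes with a promoter. The windows around each TCACGTGA are shown because the genes that carry them return in the results. They run 5′ to 3′ along the gene's strand, with the motif in capitals.
Atp6v0d1, chr8:105566050-105566079, minus strand: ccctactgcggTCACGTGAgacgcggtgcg
Atp6v0e, chr17:26676387-26676416, plus strand: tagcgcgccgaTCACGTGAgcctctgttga
Atp6v1a, chr16:44139373-44139402, minus strand: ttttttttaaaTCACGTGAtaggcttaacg
Ctsa, chr2:164833749-164833778, plus strand: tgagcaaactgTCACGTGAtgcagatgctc
Ctsa, chr2:164833766-164833795, plus strand: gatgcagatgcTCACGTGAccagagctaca
Ctsd, chr7:142387908-142387937, minus strand: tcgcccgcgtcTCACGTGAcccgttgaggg
Mcoln1, chr8:3500462-3500491, plus strand: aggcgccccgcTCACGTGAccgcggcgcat
Gla, chrX:134601215-134601244, minus strand: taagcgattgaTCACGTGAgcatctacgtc
Gla, chrX:134601182-134601211, minus strand: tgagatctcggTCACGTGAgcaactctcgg
Counted from the first base of the motif, the matches lay 132 bases before the annotated start in Atp6v1a, 99 in Ctsd, 46 in Mcoln1, 228 and 195 in Gla, 13 in Ctsa and 4 in Atp6v0d1. The second match of Ctsa began 4 bases after the start, and that of Atp6v0e 2 bases after it. A match describes the letters of the promoter and is neither a shown binding site nor a cause of any change below.

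The deposited values are 1 intensity per probe set on a linear scale, and differences are given as log2 of that intensity. A gene is called when the Benjamini-Hochberg adjusted p of the limma fit over all 19938 genes is under 0.05. Nfkbiz itself read 1568, 1335 and 1634 in LPS-treated knockout cells, against 3371, 3786 and 3079 in LPS-treated wild-type cells. Untreated arrays read 266.9, 285.6 and 274.4 in the knockout, against 462.6, 430.7 and 406.3 in the wild type. Within each treatment the knockout arrays lay below the wild-type arrays, although the probe set rose with LPS in both genotypes, by 2.45 and 2.97 on the log2 scale. Whether the probe set covers the deleted part was not checked here. The 10 macrophage markers, among them the growth factor receptor gene Csf1r and the lysozyme gene Lyz2, had a mean log2 intensity of 11.36 to 11.95 on every array. B cell, T cell, mast cell, neutrophil, eosinophil, dendritic cell and mesothelial or fibroblast markers had means of 5.78 to 8.26. The number of arrays limits the precision.

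LPS lowered most of the list in both genotypes. In knockout cells 26 of the 39 genes fell and 1 rose, where 45.7% of all genes were called, 23.8% lower and 21.9% higher, and the median of the list was -0.42, against 0.07 over all genes. In wild-type cells 22 fell and 1 rose, where 28.1% of all genes were called, 18.5% lower and 9.53% higher, with medians of -0.39 and 0.04. Both genotypes shared 20 of these calls with the same direction, which is 74.1% of the 27 called in the knockout and 87% of the 23 called in the wild type. The mean log2 intensity of the 39 genes was 10.97 to 11.25 on the LPS-treated knockout arrays and 11.50 to 11.71 on the untreated knockout arrays. It was 11.02 to 11.12 on the LPS-treated and 11.51 to 11.59 on the untreated wild-type arrays, so the treatments did not overlap in either genotype.

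Some cell type markers moved with LPS as well. Of the 10 macrophage markers, 3 fell and 3 rose in the knockout and 3 fell and 2 rose in the wild type. That is 30% lower and 30% higher in the knockout and 30% lower and 20% higher in the wild type. Of all genes, 23.8% fell and 21.9% rose in the knockout, and 18.5% fell and 9.53% rose in the wild type. Csf1r was at -0.68 and -0.69, Icam2 at 1.37 and 1.33 and Mertk at 0.58 and -0.69. The LPS response of Mertk differed between the genotypes (interaction 1.27, limma adjusted p = 0.0053). The mean of the 6 dendritic cell markers was 6.56 to 6.65 in LPS-treated and 6.84 to 7.12 in untreated knockout cells, and 6.60 to 6.94 in LPS-treated and 7.01 to 7.48 in untreated wild-type cells, without overlap in either genotype. Of these 6, 1 fell in both genotypes, Clec9a (-2.60 and -2.03), and 2 rose in the knockout. The mean of the 8 mesothelial or fibroblast markers was higher with LPS without overlap. It was 6.87 to 7.01 against 6.69 to 6.83 in the knockout and 6.96 to 6.98 against 6.76 to 6.91 in the wild type. Neutrophil markers did so in the knockout alone (6.65 to 6.74 against 6.47 to 6.57). Of the 5 eosinophil markers, 3 rose (60%) and 1 fell (20%) in the knockout and 1 fell (20%) in the wild type. Of the 5 B cell markers 1 fell in both, Cd79b (-1.27 and -0.98). The share that fell, 20% of the B cell and 16.7% of the dendritic cell markers, was near that of all genes. The part of these markers in the results was not tested.

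**Figure D1:**
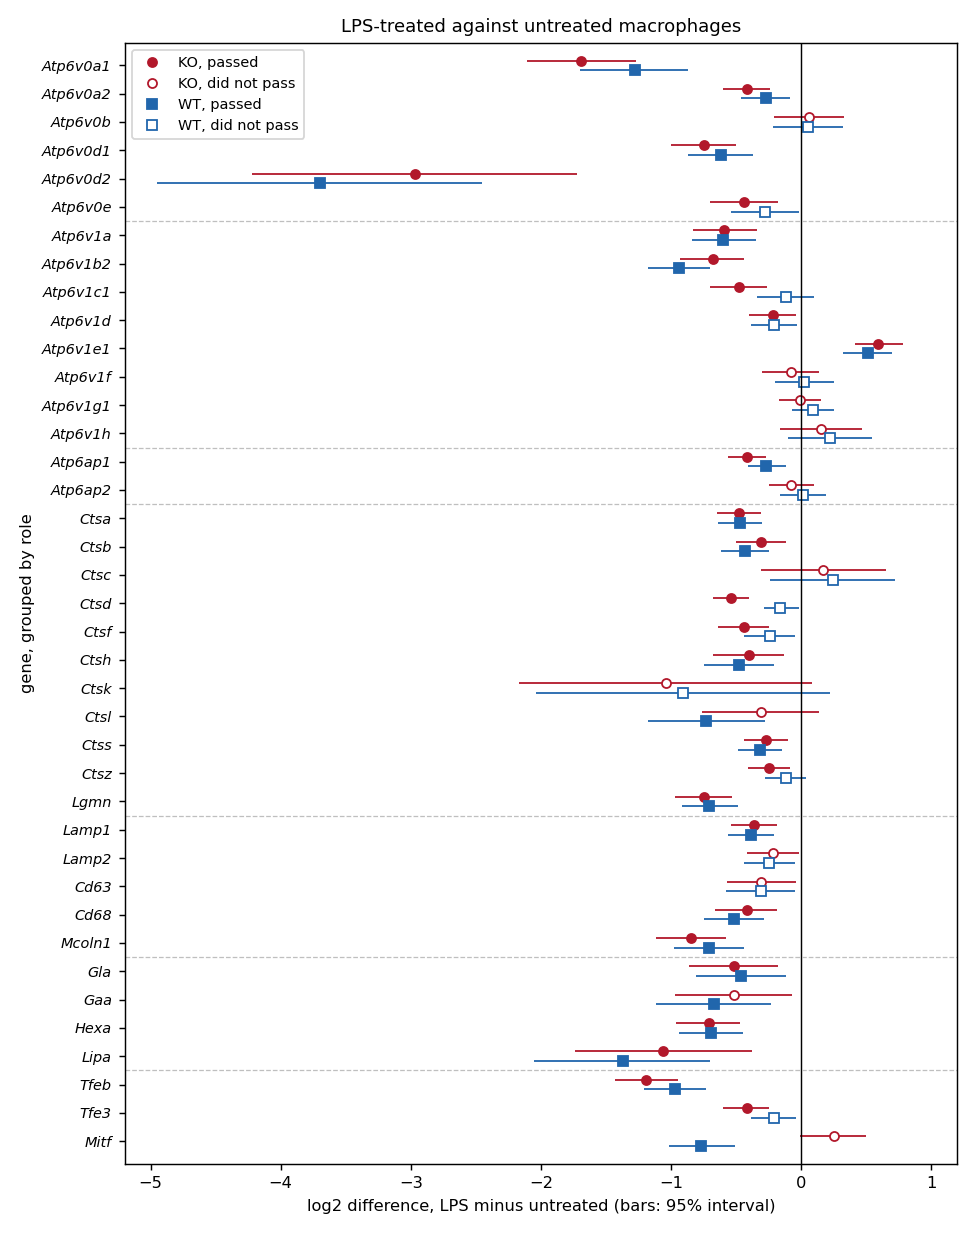
The log2 difference between LPS-treated and untreated cells is plotted for each of the 39 genes, with circles for knockout and squares for wild type and bars for the 95% interval of the limma fit. Filled symbols passed an adjusted p of 0.05, most of them lie left of 0, and Atp6v1e1 is the 1 gene called to the right of 0 in both genotypes.

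All 39 genes remained after the dimmest 40% of genes were removed, and the background was then higher. Among the 11963 genes left, 37.6% fell with LPS in knockout cells and 29.9% in wild-type cells. The arrays of the treatments did not overlap for 23 genes that were lower and 1 that was higher with LPS in knockout cells, where 25.5% and 28.3% of all genes did so. In wild-type cells 29 were lower and 4 higher without overlap, where 24.3% and 23.2% of all genes did so. Centring each array on its 75th percentile put the median LPS difference over all genes at 0.28 in the knockout and 0.19 in the wild type. On that scale 16 members fell and 4 rose in the knockout and 17 fell and 3 rose in the wild type, where 16.9% and 13.9% of all genes fell. Of all 19938 genes, 11026 rose on that scale in the knockout and 7416 in the wild type.

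The pump did not move as 1 block. Of its 16 measured genes, 10 fell and 1 rose with LPS in knockout cells and 7 fell and 1 rose in wild-type cells. The V0 sector fell at 5 of 6 genes in the knockout and at 4 of 6 in the wild type. The V1 sector fell at 4 of 8 and at 2 of 8, and Atp6v1e1 rose in both. Of all genes 23.8% fell in the knockout and 18.5% in the wild type, so the 25% of the V1 sector in the wild type was near that share.

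Atp6v0d2 fell furthest of all listed genes. It encodes a tissue-restricted form of the d subunit, known from osteoclasts and macrophages, which joins the V0 ring to the central stalk. It read 161.1, 774.8 and 196.0 in LPS-treated knockout cells, against 1828, 3943 and 1628 in untreated knockout cells. In wild type it read 218.4, 147.6 and 83.58 with LPS, against 1255, 2662 and 1780 without. The treatments did not overlap in either genotype, although the array numbered 2 stood well above its companions in both knockout groups. The log2 difference was -2.97 in the knockout (limma adjusted p = 0.00135) and -3.70 in the wild type (limma adjusted p = 0.000439), which leaves 12.8% and 7.68% of the untreated level. Without LPS-treated knockout replicate 2 the knockout value was -3.68. Atp6v0d1, which encodes the ubiquitous d subunit and carries the motif, fell less, by 0.75 on the log2 scale in the knockout and by 0.62 in the wild type.

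The a subunits, which form the proton path, moved in opposite directions. Atp6v0a1 (form a1) read 646.0, 992.0 and 689.2 in LPS-treated knockout cells, against 2105, 3065 and 2308 in untreated knockout cells. Wild-type arrays read 1238, 944.4 and 1363 with LPS, against 2540, 2913 and 3110 without. The groups lay far apart in both genotypes, at log2 differences of -1.69 in the knockout (limma adjusted p = 2.94e-05) and -1.28 in the wild type (limma adjusted p = 0.000337). Tcirg1, which encodes the a3 form of lysosomes and of the osteoclast border and is not among the 40 genes, rose in both. It read 7220, 7548 and 7737 in LPS-treated knockout cells, against 5820, 5988 and 5200 in untreated knockout cells. With LPS the wild-type arrays gave 7029, 7665 and 6627, against 5517, 5482 and 4791 without. No LPS-treated array overlapped an untreated one, and the log2 differences were 0.41 in the knockout (limma adjusted p = 0.00253) and 0.43 in the wild type (limma adjusted p = 0.00248). Atp6v0a2 (form a2) fell by 0.42 and 0.27 on the log2 scale, but its dimmer probe set gave 0.16 and -0.07, neither of them called, and the mean of both probe sets was not called (-0.13, limma adjusted p = 0.127, and -0.17, limma adjusted p = 0.0735). The wild-type call was also lost in 4 of 12 fits without 1 array, namely without LPS-treated wild-type replicate 1 or 2 or untreated wild-type replicate 1 or 3, at -0.27 to -0.24.

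**Figure D2:**
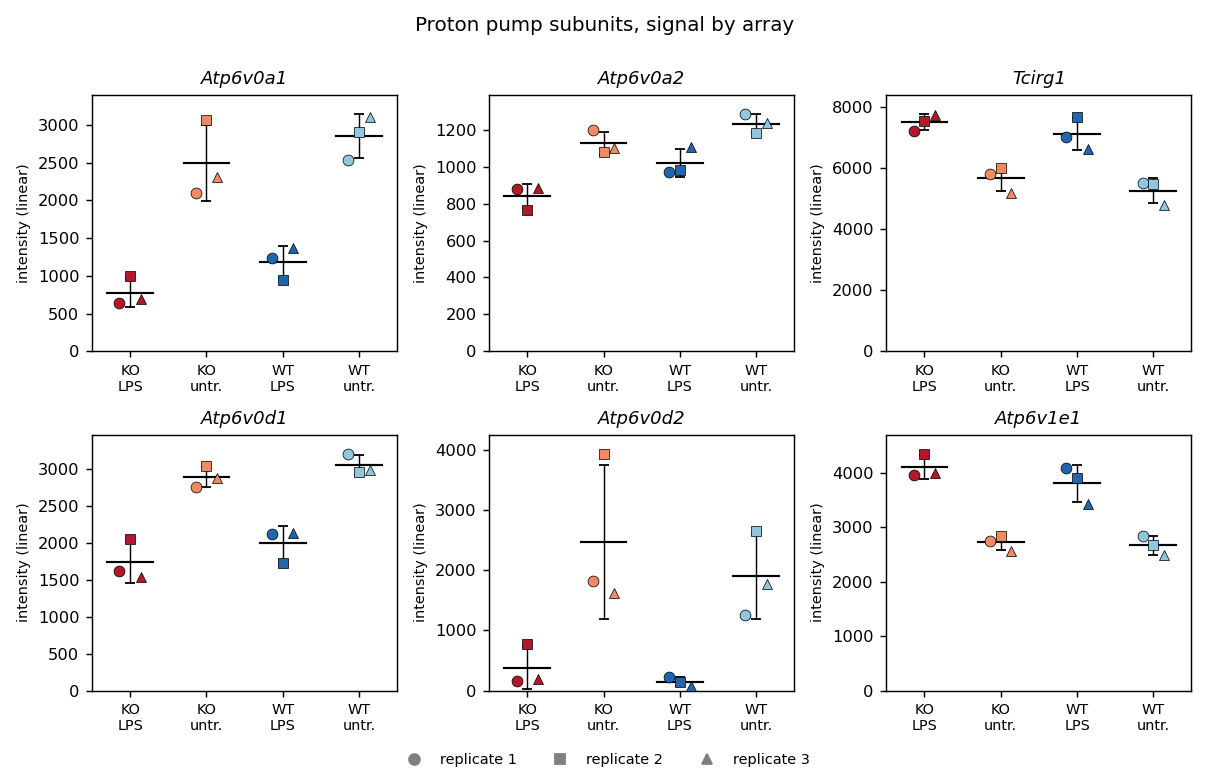
The linear intensity of 6 pump genes is plotted for every array in the 4 groups, with a horizontal line at the group mean and a bar of 1 SD (n = 3), and with a marker shape for each replicate number. Atp6v0a1, Atp6v0a2, Atp6v0d1 and Atp6v0d2 sit lower with LPS and Tcirg1 and Atp6v1e1 higher, and the knockout squares stand apart at Atp6v0d2.

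Among the other V0 genes, Atp6v0e, a small membrane subunit whose promoter carries the motif, fell in the knockout (-0.44, limma adjusted p = 0.0106) and was -0.28 in the wild type (limma adjusted p = 0.101). Atp6v0b, a further ring proteolipid, was at 0.06 and 0.05, with 95% intervals of -0.21 to 0.33 and -0.22 to 0.32.

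In the V1 sector, both genes of the catalytic hexamer fell and 1 gene of the stator stalks rose. Atp6v1a encodes the A subunit that holds the catalytic site, and its promoter carries the motif. It fell by 0.59 in the knockout and by 0.60 in the wild type on the log2 scale. Atp6v1b2 encodes the B subunit, its partner in the hexamer. It read 2713, 3815 and 3302 in LPS-treated knockout cells, against 4842, 5574 and 5242 in untreated knockout cells. Wild-type arrays read 2933, 2653 and 3045 with LPS, against 5516, 5572 and 5453 without. The ranges were separate in both genotypes, at -0.68 (limma adjusted p = 0.000439) and -0.94 (limma adjusted p = 6.59e-05). Atp6v1e1, which encodes the E subunit of the peripheral stalks, read 3975, 4360 and 4007 in LPS-treated knockout cells, against 2759, 2850 and 2572 in untreated knockout cells. Wild-type arrays gave 4087, 3918 and 3424 with LPS, against 2844, 2681 and 2491 without. Every LPS-treated array lay above every untreated one, at 0.59 in the knockout (limma adjusted p = 0.00018) and 0.51 in the wild type (limma adjusted p = 0.000805).

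Atp6v1g1, the partner of E in the stalk, was not called in either genotype (-0.01 and 0.09). With the arrays centred on the 75th percentile it was called higher in both, at 0.21 (limma adjusted p = 0.0364) and 0.25 (limma adjusted p = 0.0269). On that scale the median over all genes was 0.28 in the knockout and 0.19 in the wild type. The regulatory subunit gene Atp6v1h (0.15 and 0.22) and the stalk gene Atp6v1f (-0.08 and 0.02) were not called as deposited, and with that centring Atp6v1h was called higher at 0.37 in both. Atp6v1c1, whose C subunit holds the sectors together, fell in the knockout (-0.48, limma adjusted p = 0.00262) and was -0.12 in the wild type, a difference between genotypes that was not called (interaction -0.36, limma adjusted p = 0.311). Atp6v1d, a rotor gene, was -0.22 and -0.21. Its call in the knockout (limma adjusted p = 0.0469) was lost in 10 of 12 fits that left out 1 array, at -0.25 to -0.18.

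The accessory gene Atp6ap1, which encodes a V0 assembly protein, fell in both genotypes, by 0.42 in the knockout and by 0.27 in the wild type. The wild-type call was lost with quantile normalization (-0.20, limma adjusted p = 0.0581) and with centring on the 75th percentile (-0.11, limma adjusted p = 0.17). Atp6ap2, also known as the prorenin receptor gene, was at -0.08 and 0.01. Of 12 other pump genes, isoforms and assembly factors, 4 rose and 3 fell in knockout cells and 2 rose and 3 fell in wild-type cells. That is 25% lower in each genotype, near the 23.8% and 18.5% of all genes. The 3 that fell included Wdr7 (-1.33 and -1.51) and Dmxl2 (-1.32 and -1.10), which encode the rabconnectin proteins that help the sectors assemble, and Rogdi (-0.68 and -0.86), which encodes a partner of theirs.

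The cathepsins with legumain had a median LPS difference of -0.40 in the knockout and -0.43 in the wild type. Over the 16 pump genes it was -0.42 and -0.24. Of the 11 genes, 8 fell in knockout cells and 6 in wild-type cells, and 0 rose in either. That is 72.7% and 54.5% lower, against 23.8% and 18.5% of all genes. Legumain (Lgmn), the asparaginyl endopeptidase that also processes cathepsins, read 2879, 2899 and 3533 in LPS-treated knockout cells, against 5157, 4749 and 5734 in untreated knockout cells. Wild-type arrays read 3320, 3445 and 3134 with LPS, against 5090, 5753 and 5327 without. The groups were separate, at -0.75 (limma adjusted p = 9.3e-05) and -0.71 (limma adjusted p = 0.000223). The serine carboxypeptidase gene Ctsa, whose promoter holds the motif at 2 places, fell by 0.48 and by 0.47 on the log2 scale. Ctsb (-0.31 and -0.43), Ctsh (-0.40 and -0.48) and Ctss (-0.27 and -0.32), which encode cysteine proteases, fell in both genotypes. The call of Ctsb in the knockout was lost without LPS-treated knockout replicate 1 (-0.24), and so was that of Ctss (-0.22). That of Ctsh was lost without LPS-treated knockout replicate 1 or 2 or untreated knockout replicate 3 (-0.33 to -0.31), and in the wild type without LPS-treated wild-type replicate 1 (-0.45). With centring on the 75th percentile the knockout calls of all 3 ended, at -0.09 for Ctsb, -0.19 for Ctsh and -0.06 for Ctss, as did the wild-type call of Ctss (-0.17).

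Ctsd, the aspartic protease gene, read 9194, 9041 and 9020 in LPS-treated knockout cells, against 13240, 13370 and 12980 in untreated knockout cells. In wild type it read 10770, 10200 and 11070 with LPS, against 11910, 12420 and 11370 without. The arrays of a group lay close together and the treatments did not overlap. The difference passed in the knockout (-0.54, limma adjusted p = 3.58e-05) and missed in the wild type (-0.16, limma adjusted p = 0.0854), and the difference between these responses was -0.38 (limma adjusted p = 0.0824). With array weights the wild-type difference (-0.15, limma adjusted p = 0.0179) and that between the responses (-0.38, limma adjusted p = 0.0299) were called. With these weights 50.7% and 3.35% of all genes were called. Without the weights, Ctsf (-0.44 and -0.24) and Ctsz (-0.25 and -0.12), both cysteine protease genes, likewise passed in the knockout and not in the wild type. Their interactions of -0.20 and -0.13 were not called. With centring on the 75th percentile neither passed in the knockout (-0.23 and -0.04).

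Ctsl, Ctsk and Ctsc varied more between arrays. Ctsl, the cathepsin L gene, read 4209, 4108 and 7521 in LPS-treated knockout cells, against 6230, 5162 and 7718 in untreated knockout cells. Wild-type arrays gave 4767, 4299 and 4661 with LPS, against 7098, 7982 and 7632 without. Knockout replicate 3 was the highest of its group in both treatments, and the knockout ranges overlapped while those of the wild type did not. The log2 difference was -0.31 in the knockout (limma adjusted p = 0.232) and -0.73 in the wild type (limma adjusted p = 0.0201). Without LPS-treated knockout replicate 3 it was -0.60 in the knockout (limma adjusted p = 0.00652). The wild-type call was lost without LPS-treated wild-type replicate 2 or untreated wild-type replicate 2 or 3, at -0.72 to -0.68. Ctsc, which encodes the activator of granule serine proteases, was not called, at 0.17 and 0.24.

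The same-numbered knockout arrays deviated together, as described with the processing, and so did the wild-type arrays numbered 3. A fit with the replicate number as a block within each genotype therefore bears on both responses, and most on that of the knockout. Under it Ctsk (-1.04, limma adjusted p = 0.000129), Gaa (-0.52, limma adjusted p = 0.000631), Cd63 (-0.31, limma adjusted p = 0.0253) and Ctsl (-0.31, limma adjusted p = 0.0423) were called lower in LPS-treated knockout cells and Mitf higher (0.25, limma adjusted p = 0.0496). Without the block these 5 were not called. The count of listed genes called in the knockout was 32 with this block and 27 without it, where 47.1% and 45.7% of all genes were called. In the wild type it was 27 with the block and 23 without it, where 30.5% and 28.1% of all genes were called. There the block added Atp6v0e, Ctsk and Cd63 as lower and Ctsc as higher.

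Ctsk and 3 further genes, named after their values were seen, show the deviation beside Atp6v0d2. Ctsk, the collagen-degrading cathepsin best known from osteoclasts, read 88.07, 254.8 and 78.33 in LPS-treated knockout cells, against 173.0, 599.4 and 148.7 in untreated knockout cells. Lipa, the acid lipase that frees cholesterol from its esters, read 2472, 5645 and 2291, against 5581, 9989 and 5207. Gaa, the acid glucosidase that degrades glycogen, read 1542, 2251 and 1275, against 2114, 3152 and 1957. The array numbered 2 was the highest at each of them in both knockout groups, while at Ctsc it was the lowest, with 6115 among LPS-treated and 5645 among untreated knockout arrays. Among the 10 macrophage markers, the same arrays stood highest in both groups at Timd4 (2608 and 1646), a phosphatidylserine receptor gene, and at Csf1r and Lyz2. They stood lowest in both groups at Fcgr1 (425.6 and 394.0), Gata6 (725.9 and 1783) and Itgam (5327 and 6930). At the remaining macrophage markers they were neither highest nor lowest in both groups. Their mean log2 intensity was also the lowest of their group for B cell markers (7.10 and 7.30), mast cell markers (6.47 and 6.88) and dendritic cell markers (6.56 and 6.84). The part of these markers in the results was not tested. Without both arrays numbered 2, an alternative chosen after seeing the data, Ctsk was called in the knockout at -0.95 (limma adjusted p = 0.00445) and Gaa at -0.54 (limma adjusted p = 0.00487), and Ctsk was called in the wild type at -0.91 (limma adjusted p = 0.00183). The list then had 27 calls in the knockout and 28 in the wild type, where 37.4% and 31.3% of all genes were called.

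**Figure D3:**
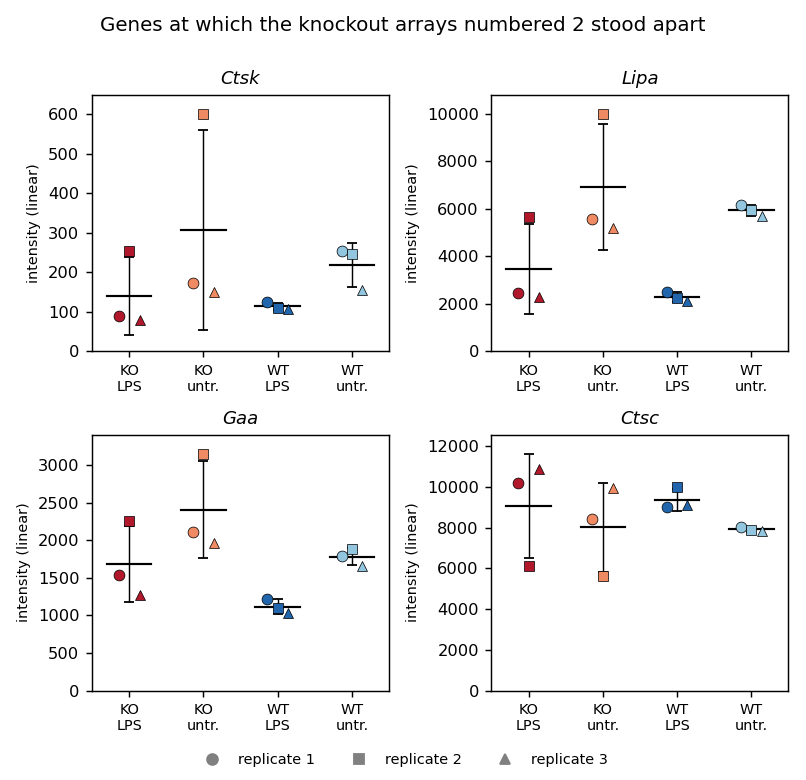
The linear intensity of Ctsk, Lipa, Gaa and Ctsc is plotted for every array, with the group mean and 1 SD (n = 3). The squares of both knockout groups, which mark replicate 2, lie above their companions in the first 3 panels and below them at Ctsc, while the wild-type arrays lie close together except at untreated Ctsk.

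Among membrane proteins the calcium channel gene Mcoln1 fell most. It encodes TRPML1, which releases calcium from the lysosome, and its promoter carries the motif. It read 1460, 2009 and 1618 in LPS-treated knockout cells, against 2849, 3453 and 2809 in untreated knockout cells. Wild-type arrays read 1886, 1615 and 1999 with LPS, against 3014, 2984 and 2972 without. Neither pair overlapped, at -0.85 (limma adjusted p = 0.000203) and -0.71 (limma adjusted p = 0.00107). Lamp1 (-0.36 and -0.39), the main glycoprotein lining the lysosome, and Cd68 (-0.42 and -0.52), a related glycoprotein used as a macrophage marker, fell in both genotypes. With centring on the 75th percentile their knockout calls were lost, at -0.15 for Lamp1 (limma adjusted p = 0.125) and -0.21 for Cd68 (limma adjusted p = 0.105). Lamp2 (-0.22 and -0.25), the partner of Lamp1, and the tetraspanin gene Cd63 (-0.31 and -0.31) were not called in either. Of these 5 genes, 3 fell in each genotype and 0 rose, where 23.8% and 18.5% of all genes fell.

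Of the 4 glycosidase and lipase genes, 3 fell in the knockout and 4 in the wild type, where 23.8% and 18.5% of all genes fell. Lipa in the wild type read 2513, 2254 and 2120 with LPS, against 6182, 5937 and 5693 without. These groups were far apart, at -1.37 (limma adjusted p = 0.00573). In the knockout the difference was -1.06 (limma adjusted p = 0.0159), with LPS-treated replicate 2 above the lowest untreated array, and it was -1.18 without both arrays numbered 2. That call was lost without LPS-treated knockout replicate 1 or 3 or untreated knockout replicate 2, where the value was -0.76 at the least. Hexa, a subunit gene of the hexosaminidase that degrades gangliosides, fell by 0.71 and by 0.69 on the log2 scale. Gaa fell in the wild type (-0.67, limma adjusted p = 0.0274) and was -0.52 in the knockout (limma adjusted p = 0.0558). Its wild-type call was lost in 5 of 12 fits without 1 array, namely without LPS-treated wild-type replicate 2 or 3 or any 1 of the untreated wild-type arrays, at -0.72 to -0.62. Gla, the galactosidase gene deficient in Fabry disease and the last of the 7 with the motif, was called at -0.52 and -0.46. Those calls were lost in 4 and 9 of 12 fits without 1 array, and both were lost with centring on the 75th percentile (-0.31 in each) and without both arrays numbered 2 (-0.45 and -0.46).

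The 3 regulators did not share 1 pattern. Tfeb read 243.6, 247.5 and 208.3 in LPS-treated knockout cells, against 534.9, 612.8 and 452.4 in untreated knockout cells. Wild-type arrays read 234.8, 252.6 and 252.8 with LPS, against 451.3, 497.4 and 506.2 without. The treatments were fully separate, and Tfeb fell to 43.9% of the untreated level in the knockout (-1.19, limma adjusted p = 7.13e-06) and to 50.9% in the wild type (-0.97, limma adjusted p = 4.61e-05). Tfe3 fell in the knockout (-0.42, limma adjusted p = 0.00135) and was -0.21 in the wild type (limma adjusted p = 0.0737), with an interaction of -0.21 that was not called.

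Mitf was the 1 listed gene whose LPS response differed between the genotypes, where 0.747% of all genes did. It encodes the factor best known from pigment cells, mast cells and osteoclasts. It read 2656, 3248 and 2425 in LPS-treated knockout cells, against 2062, 2641 and 2302 in untreated knockout cells. Wild-type arrays read 1609, 1546 and 1379 with LPS, against 2543, 2527 and 2641 without. The wild-type treatments were separate and the knockout treatments overlapped. Mitf fell in the wild type (-0.77, limma adjusted p = 0.0004) and was 0.25 in the knockout (limma adjusted p = 0.104), with an interaction of 1.02 (limma adjusted p = 0.0189). With centring on the 75th percentile the knockout value was called at 0.46, where the median over all genes was 0.28.

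The interaction of Mitf was called in 8 of 12 fits that left out 1 array. It was lost without untreated knockout replicate 1 and without each of the untreated wild-type arrays, at 0.90 to 1.11 over all 12 fits and adjusted p up to 0.0654. It was also lost with the mean of both probe sets (0.78, limma adjusted p = 0.114), since the dim second probe set had an interaction of 0.54 (limma adjusted p = 0.431). Mast cell markers, a cell type in which Mitf is known to be active, had a mean log2 intensity of 6.47 to 7.98 in LPS-treated knockout cells, against 6.44 to 6.95 in LPS-treated wild-type cells. In untreated cells the mean was 6.88 to 8.16 in the knockout, against 6.63 to 6.90 in the wild type. None of the 6 mast cell markers was called, and their part in the result was not tested. Knockout replicate 2 was the highest of its group for Mitf in both treatments and the lowest for the mean of the mast cell markers (6.47 with LPS and 6.88 without). The interaction was 0.99 without both knockout arrays numbered 2 (limma adjusted p = 0.00718), a fit chosen after seeing the data.

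**Figure D4:**
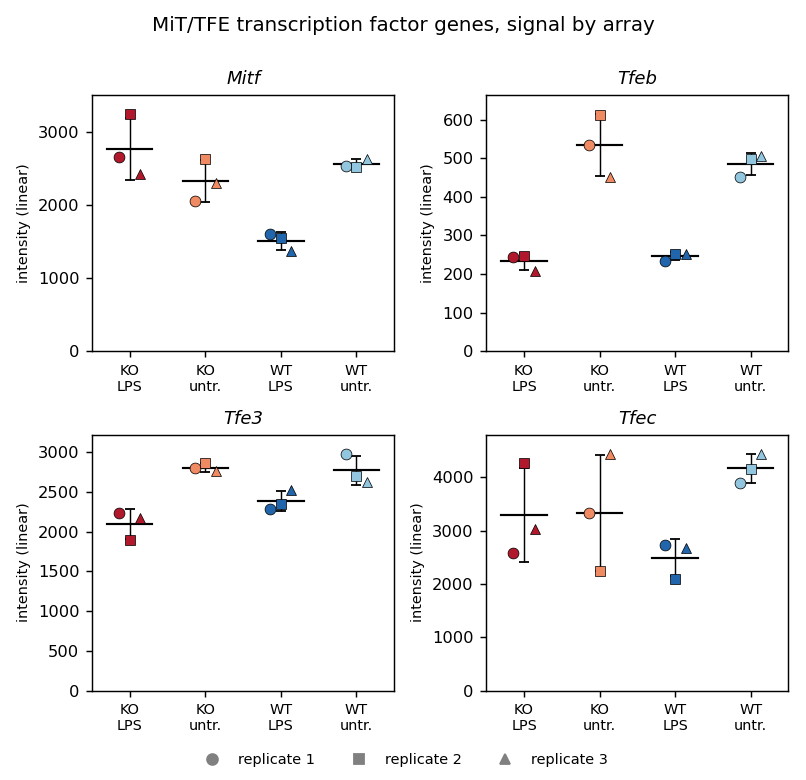
The linear intensity of Mitf, Tfeb, Tfe3 and their relative Tfec is plotted for every array in the 4 groups, with the group mean and 1 SD (n = 3). LPS-treated wild-type arrays are the lowest group at Mitf, at 1379 to 1609, while Tfeb is low with LPS in both genotypes.

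Tfec, the remaining gene of the MiT/TFE family and not among the 40, read 2575, 4276 and 3033 in LPS-treated knockout cells, against 3326, 2240 and 4429 in untreated knockout cells. Wild-type arrays read 2723, 2095 and 2664 with LPS, against 3898, 4160 and 4444 without. It fell in the wild type (-0.75, limma adjusted p = 0.0303) and was 0.01 in the knockout, where the arrays overlapped. Its interaction of 0.75 was not called (limma adjusted p = 0.356).

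The LPS-treated genotypes differed at 3 of the 39 listed genes, where 8.14% of all genes were called, 3.28% higher and 4.87% lower. Mitf was higher in the knockout by 0.87 on the log2 scale (limma adjusted p = 0.00135), or 183% of the wild-type level, with no overlap between the genotypes. It kept its call in all 12 fits without 1 array, at 0.75 to 0.96. Atp6ap1 read 4151, 4086 and 4398 in LPS-treated knockout cells, against 5118, 4705 and 5218 in LPS-treated wild-type cells. Atp6ap1 (-0.25, limma adjusted p = 0.0396) and Ctsd (-0.23, limma adjusted p = 0.0422) were lower without overlap, but leaving out 1 array ended the call of Atp6ap1 in 10 of 12 fits (limma adjusted p up to 0.156) and that of Ctsd in 11 of 12 (up to 0.163). They were also lost after centring on the 75th percentile (-0.19 and -0.17). The arrays of the genotypes did not overlap for 3 listed genes that were higher and 4 that were lower in the knockout, where 10.3% and 14.2% of all genes did so.

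**Figure D5:**
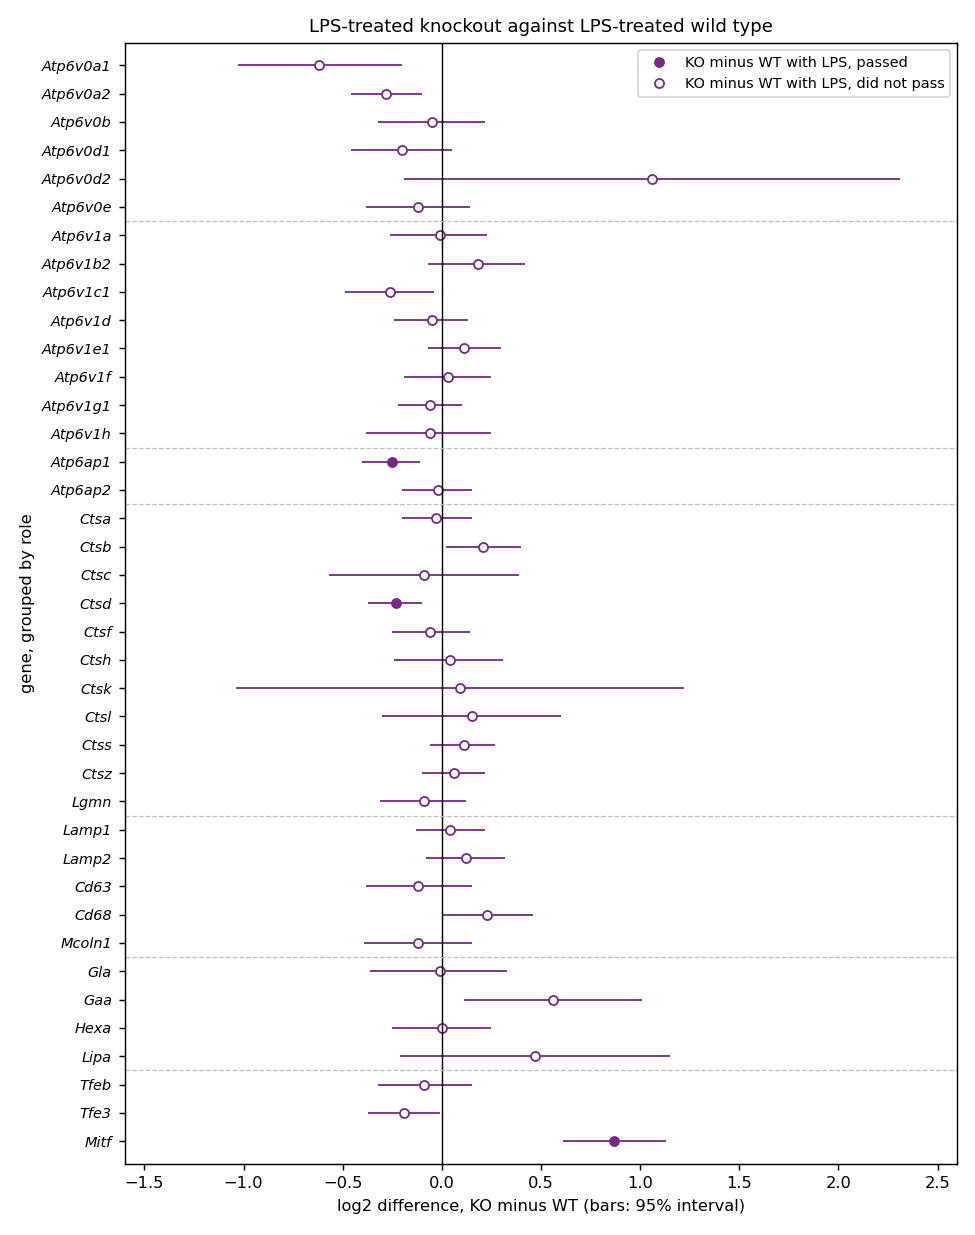
The log2 difference between LPS-treated knockout and LPS-treated wild-type cells is plotted for each of the 39 genes with its 95% interval from the limma fit. Mitf stands right of 0 at 0.87, Atp6ap1 and Ctsd are the filled circles left of 0, and Atp6v0d2 and Ctsk have the widest intervals.

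For 31 of the 39 genes the 95% interval of the difference between the LPS-treated genotypes lay within 0.5 of 0 on the log2 scale. The intervals of Atp6v0a1, Atp6v0d2, Ctsc, Ctsk, Ctsl, Gaa and Lipa reached beyond 0.5. That of Mitf lay wholly above 0.5 (0.61 to 1.13). Atp6v0a1 was at -0.62 (95% interval -1.03 to -0.20, limma adjusted p = 0.0731), with LPS-treated knockout replicate 2 above the lowest wild-type array, and was called without LPS-treated knockout replicate 2 (-0.81, limma adjusted p = 0.0234) and without LPS-treated wild-type replicate 2 (-0.77). Atp6v0d2 was at 1.06 (-0.19 to 2.31, limma adjusted p = 0.324), and at 0.35 without both arrays numbered 2.

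Without LPS, the limma fit called 0 of the 39 listed genes between knockout and wild type, where 0.0752% of all genes were called, and 2 of the 39 had an unadjusted p under 0.05. The arrays did not overlap for 5 genes that were higher and 1 that was lower in the knockout, where 4.88% and 11.5% of all genes did so. The differences ran from -0.27 at Ctsl to 0.40 at Gaa. The 95% intervals lay within 0.5 of 0 for 32 genes and within 1 of 0 for 37, and Atp6v0d2 (-0.92 to 1.57) and Ctsk (-0.90 to 1.35) were the remaining 2.

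Of the genes with TCACGTGA in the promoter, 7 of 7 fell in LPS-treated knockout cells and 5 of 7 in the wild type, the exceptions being Atp6v0e and Ctsd. With centring on the 75th percentile the knockout calls of Atp6v0e (-0.22, limma adjusted p = 0.109) and Gla (-0.31, limma adjusted p = 0.102) were lost, which leaves 5 of 7, and that of Gla was also lost without both arrays numbered 2 and on the 6 arrays compared. Among the measured listed genes with a promoter and no such match, 13 of 24 fell in the knockout (54.2%) and 12 of 24 in the wild type (50%). Over all tested genes with a promoter, 45.8% of the 238 with the motif fell in the knockout and 35.7% in the wild type. Of the 15376 without it, 24.8% and 19.3% fell. Among lysosomal genes outside the list, 0 of 3 membrane and transport genes with the motif fell in either genotype. Of 3 sorting genes with the motif, 1 fell in each. Atp6v0a1, Lipa and Tfeb, which fell by more than most of the 39, had a promoter without the motif, and Atp6v0d2 had no promoter in the table. The part of the motif in the results was not tested.

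Hydrolases outside the list fell in similar number. Of 32 other lysosomal hydrolase genes, 24 fell and 0 rose in knockout cells, and 24 fell and 1 rose in wild-type cells. That is 75% lower in each, against 23.8% and 18.5% of all genes, and the median was -0.55 in both. TCACGTGA was found in 0 of the 26 with a promoter. Pla2g15, the lysosomal phospholipase A2 gene, read 428.7, 265.8 and 475.7 in LPS-treated knockout cells, against 3003, 2213 and 3219 in untreated knockout cells. Wild-type arrays read 384.5, 350.9 and 503.4 with LPS, against 2794, 2941 and 3217 without. Its log2 difference was -2.87 in both genotypes (limma adjusted p = 1.59e-06 in the knockout and 2.39e-06 in the wild type), with a gap between the treatments larger than the whole spread within them. Sgsh (-2.04 and -1.97), which removes sulphate from heparan sulphate, and the sphingomyelinase gene Smpd1 (-1.49 and -1.14) fell too.

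Of 22 other membrane and transport genes, 13 fell in each genotype, while 2 rose in the knockout and 1 in the wild type. That is 59.1% lower in each, against 23.8% and 18.5% of all genes. The sialic acid exporter gene Slc17a5 (-2.22 and -2.14) and the cystine exporter gene Ctns (-2.13 and -1.89) fell most. The exception in both genotypes was Slc15a3, which encodes a histidine and peptide transporter and rose in both (1.41 in the wild type). Of 8 sorting genes 4 (50%) fell in each genotype. Among them were the receptor gene Sort1 (-1.41 and -1.52) and Nagpa (-1.41 and -1.36), whose enzyme uncovers the mannose 6-phosphate tag.

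Of 20 genes of mTORC1 and TFEB control at the lysosome, 11 fell and 1 rose in knockout cells and 10 fell and 1 rose in wild-type cells. That is 55% and 50% lower, against 23.8% and 18.5% of all genes. Lamtor4, which encodes a subunit of the Ragulator scaffold, read 1247, 1679 and 1164 in LPS-treated knockout cells, against 4405, 4388 and 3804 in untreated knockout cells. Its arrays in wild type read 1553, 1311 and 1653 with LPS, against 4390, 4292 and 4661 without. The groups were widely separate, at -1.64 (limma adjusted p = 2.78e-06) and -1.57 (limma adjusted p = 6.19e-06). Flcn, whose folliculin protein acts on the Rag GTPases that hold TFEB in the cytosol, fell by 1.53 in the knockout and by 0.89 in the wild type on the log2 scale, with an interaction that was not called (-0.64, limma adjusted p = 0.173). Of 16 autophagy genes, 10 fell and 1 rose in the knockout and 7 fell and 1 rose in the wild type. That is 62.5% and 43.8% lower, against the same shares of all genes. The vesicle gene Gabarapl1 (-1.42 and -1.14), Uvrag (-1.35 and -1.53) and Atg5 (-1.27 and -1.06) were lower and the adaptor gene Tax1bp1 was higher (0.70 and 0.84).

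Between the LPS-treated genotypes, 3 of the 32 other hydrolases, 3 of the 22 transport genes and 3 of the 16 autophagy genes were called. These are 9.38%, 13.6% and 18.8%, against 8.14% of all genes, so the share of the hydrolases is near that of all genes. The chloride exchanger gene Clcn7, whose promoter also carries TCACGTGA, read 3187, 3751 and 3604 in LPS-treated knockout cells, against 2249, 2056 and 1438 in LPS-treated wild-type cells. It was higher in the knockout without overlap (0.90, limma adjusted p = 0.0143), a call lost without LPS-treated wild-type replicate 3 (0.70, limma adjusted p = 0.0562). The iduronate sulphatase gene Ids was higher (0.45, limma adjusted p = 0.00605). The autophagy membrane gene Atg9a was lower (-0.90, limma adjusted p = 0.00529), as was the cargo receptor gene Nbr1 (-0.47, limma adjusted p = 0.00923).

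Cystatins, the protein inhibitors of cathepsins, gave the largest difference between the LPS-treated genotypes among the lists of lysosomal genes. Cst7, which encodes cystatin F, read 681.9, 1384 and 493.4 in LPS-treated knockout cells, against 196.6, 165.7 and 136.9 in LPS-treated wild-type cells. In untreated knockout cells it read 210.6, 177.3 and 141.8, and in untreated wild-type cells 190.9, 140.5 and 118.6. The LPS-treated knockout arrays stood alone at the top, and the difference from wild type was 2.24 (limma adjusted p = 0.00179), or 1.82 without LPS-treated knockout replicate 2. Its interaction was 1.99 and was not called (limma adjusted p = 0.0771). Stfa3, a stefin gene, ran the other way, at -1.81 (limma adjusted p = 0.0238), a call lost without any 1 of the LPS-treated wild-type arrays. Of 7 cystatin genes measured, these 2 (28.6%) were called, where 8.14% of all genes were called.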

How the data were processed

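The 12 arrays are 1-colour Affymetrix whole-transcript arrays with 35556 probe sets. The deposited table gives 1 linear intensity per probe set. The submitters' processing notes name RMA and Affymetrix Expression Console 1.1 without settings. As usually run, RMA makes the distributions of all arrays alike and so hides a shift shared by most transcripts. Log2 of the deposited intensity was taken with no pseudocount. Array medians were 110.4 to 118.7, and 21789 probe sets carried 1 gene symbol in GEO's platform annotation.

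All 19938 genes were fitted with limma 3.58.1 under R 4.3.3 (4 group means, 8 residual degrees of freedom, two-sided moderated tests), with p-values adjusted by Benjamini-Hochberg over all genes. LPS was set against no treatment within each genotype, the genotypes were compared within each treatment, and the interaction is the knockout response minus the wild-type response. The fit was tested on simulated data.

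Titles number the replicates 1 to 3 in each group. Deviations from the group mean correlated between same-numbered knockout arrays at 0.322, 0.568 and 0.459 and between wild-type arrays at -0.07, 0.143 and 0.359. Same-numbered arrays thus deviated together at all 3 numbers in the knockout and, in the wild type, mainly at number 3.

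The members and the lists of further genes and markers were chosen with earlier results of these data known. All measured members are described. From each further list, up to 4 called genes with the largest difference per contrast could be named, plus Tcirg1 and, after its values were seen, Tfec and Tax1bp1. Marker genes named singly were also chosen after their values were seen. Promoters came from a RefSeq table of build GRCm38.p6, and genes were matched by symbol. Alternatives were other scalings, leaving out the dimmest 40% of genes, a trended prior, array weights, replicate blocks, the mean of probe sets, fits on 6 arrays, stricter thresholds and leaving out arrays.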

Additional observations from a re-analysis of the deposited data

Results flagged for a closer look

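The LPS response of Mitf differed between the genotypes by 1.02 on the log2 scale (knockout minus wild type, limma adjusted p = 0.0189), as described above. That of Acp5, the tartrate-resistant acid phosphatase gene, differed by -1.24 (limma adjusted p = 0.0269). Acp5 read 1400, 1765 and 1382 in LPS-treated knockout cells, against 1491, 1464 and 1463 in untreated knockout cells. In wild type it read 2247, 2307 and 2201 with LPS, against 1166, 975.4 and 707.1 without. The knockout ranges overlapped and the wild-type ranges did not. The call for Acp5 held in 5 of 12 fits that left out 1 array.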

How the results depend on the processing

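The counts of listed genes called with LPS were 20 to 32 in the knockout and in the wild type under other scalings, a dim-gene filter, an intensity trend, array weights, the mean of probe sets, fits on 6 arrays and blocks, and 19 and 18 at an adjusted p of 0.01. Of all genes, 35.9% to 72.2% were called in the knockout and 27.5% to 51.1% in the wild type, and 29.8% and 18.4% at 0.01. The counts of 20 came with centring on the 75th percentile, where 72.2% and 51.1% of all genes were called. A minimum change of 2-fold left 4 and 3, near the share of all genes (9.18% and 6.04%). Leaving out 1 array gave 21 to 27 in the knockout, 19 to 24 in the wild type, 1 to 5 between LPS-treated genotypes, 0 between untreated genotypes and 0 to 1 for the interaction. In the same order, 38.5% to 45.5%, 22% to 29.8%, 3.57% to 10.8%, 0.0301% to 0.115% and 0.276% to 1.83% of all genes were called. Between LPS-treated genotypes the count was 3, and it was 1 with centring on the 75th percentile, on the 6 arrays compared or at an adjusted p of 0.01, 6 with array weights and 0 with a minimum of 2-fold. Of all genes, 8.14% were called there, and in the same order 8.29%, 2.47%, 2.77%, 16.5% and 1.38%. The count with array weights is near that share. For the interaction the count was 1, and it was 2 with array weights (Mitf and Ctsd), 0 with the mean of probe sets and 0 at an adjusted p of 0.01. Of all genes, 0.747% were called there, and in the same order 3.35%, 0.732% and 0.196%. With the replicate number as a block over all arrays the counts were 30, 24, 2, 0 and 1, and with the block within each genotype 32, 27 and 1 for both LPS contrasts and the interaction. Of all genes, 45.4%, 28.1%, 8.44%, 0.15% and 0.602% were called with the former block and 47.1%, 30.5% and 1.48% with the latter. The block over all arrays called Gaa higher in LPS-treated knockout than LPS-treated wild-type cells (0.56, limma adjusted p = 0.047) and lost Atp6ap1 (limma adjusted p = 0.0596) and Ctsd (limma adjusted p = 0.0649) there. Atp6v1g1 in the knockout turned to 0.21 with centring on the 75th percentile, where the median over all genes was 0.28. The blocks within genotype and the fits without both knockout arrays numbered 2 were chosen after seeing the data. The deposited table was used without background or detection values, so how far each signal stood above background was not analysed here.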
